A study of Mus musculus with 2 samples.

Results

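The genes that write, copy, shield and remove DNA methylation were followed in single cells of the newborn mouse ovary. The set comprised 10 of the 31057 genes listed for each library, chosen by name: Dnmt1, Dnmt3a, Dnmt3b, Dnmt3l, Uhrf1, Dppa3, Tet1, Tet2, Tet3 and Kdm1b. All 10 had at least 1 UMI (a unique molecular identifier, which counts 1 captured RNA molecule) in both libraries. The material was whole ovaries of CD1 females, an outbred stock, at postnatal day 2 (P2), and the labels name no treatment or engineered allele. There were 2 libraries, labelled as biological replicates, each a pool of 6 ovaries from 3 pups of 1 mother. The p-values below thus rest on the spread between 2 pools and not between animals. That spread was estimated for each gene over all cell types in a fit, which mostly included types beside those compared.

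Cells were assigned by marker genes, none of which is in the set. Germ cells were gated on Ddx4, Dazl and Ooep, granulosa cells on Foxl2, Fst and Wnt6, interstitial cells on Col1a2 and Dcn, and mesothelial cells on Upk3b. Of 8013 cells used, 795 passed only the germ gate, 2055 the granulosa gate, 3879 the interstitial gate and 301 the mesothelial gate. Germ cells were unevenly divided, with 223 in library 1 and 572 in library 2, and their median depth was 78318 and 54310 UMIs per cell against 4998 to 12199 in the somatic types. Marker genes that no gate used followed the gates: the germ genes Sycp3, Zp3, Nobox and Figla summed to 4808 and 3757 UMIs per 1000000 (CPM) in germ cells and to 19.5 to 39.2 CPM in somatic types. The mesothelial cells also carried the 3 granulosa check genes at 512 and 499 CPM and the 3 interstitial check genes at 621 and 700 CPM, and 4 endothelial markers at 175 and 130.1 CPM, of which 2 and 1 were at 0. Interstitial cells carried 4 perivascular markers (Rgs5, Notch3, Acta2 and Tagln) at 845 and 346 CPM, in 77.8% and 47.2% of cells. Ungated cells held 440 and 486 CPM of these markers. Whether the interstitial group includes perivascular cells was not tested. Haemoglobin genes reached 984 and 1262 CPM in granulosa and interstitial cells of library 2, against 140.0 and 31.5 CPM in library 1, and their part in the results was not tested.

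In mammals DNMT1 copies methylation onto newly made DNA, brought there by UHRF1, whereas DNMT3A and DNMT3B place methylation on unmarked sites. TET enzymes oxidize methylcytosine and so start its removal. Oocytes are set apart: their genome is methylated anew only after birth, while the non-dividing oocyte grows, a step that depends on DNMT3A, on its catalytically inactive partner DNMT3L and, at imprinted genes, on the histone demethylase KDM1B. DPPA3, also called Stella, is known to limit UHRF1 in the oocyte nucleus and to protect maternal methylation in the zygote.

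Of the 10 genes, 5 were higher in germ cells than in the mean of the 3 somatic types and 2 were lower. The comparison was made on UMIs summed per library and cell type with edgeR's quasi-likelihood test, and a gene was called when it changed over 2-fold with an adjusted p under 0.05 (Benjamini-Hochberg, 15387 genes). By the same rule 57.9% of all genes tested were called, so 7 of 10 is close to the share of the transcriptome that separates oocytes from somatic cells. Levels are given as CPM, a share of the RNA of a cell type, and since germ cells gave many times more UMIs each, UMIs per cell are given beside them where the order differs.

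**Figure D1:**
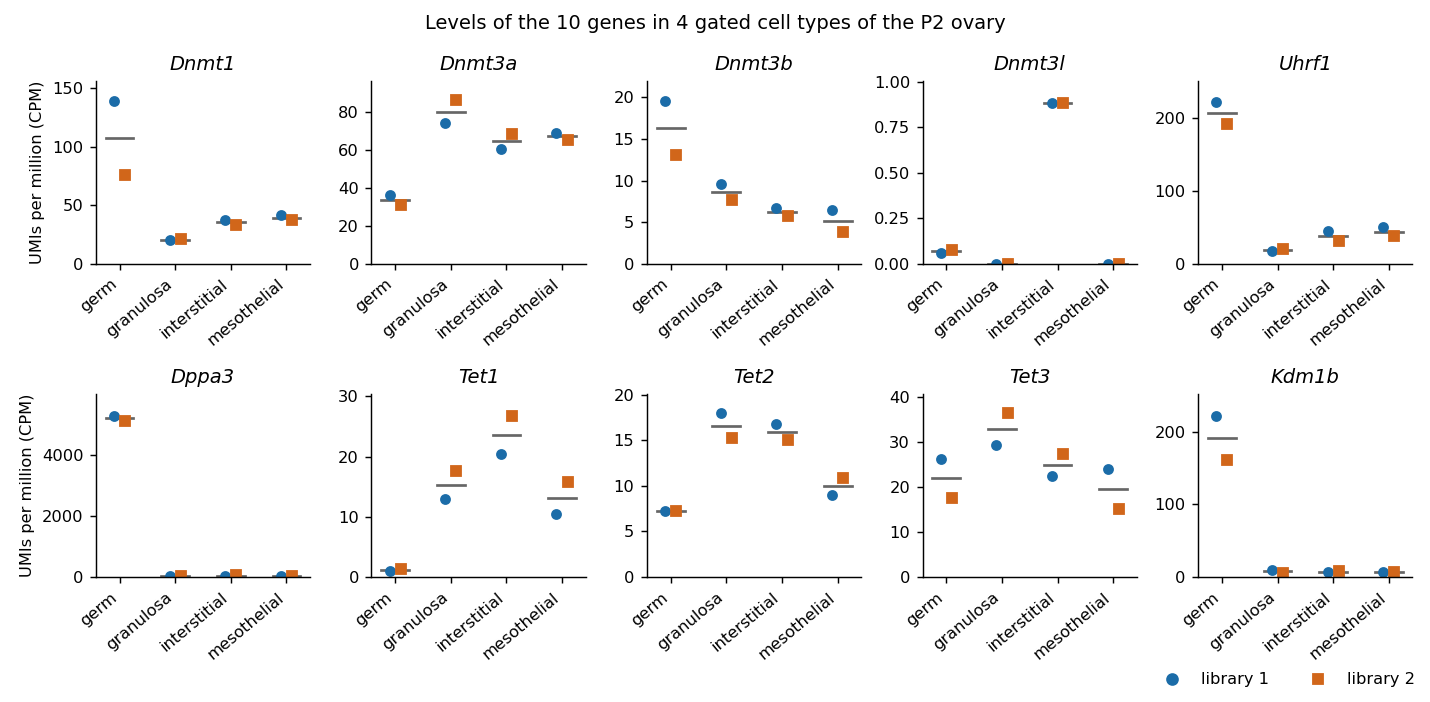
UMIs per 1000000 (CPM, linear axis from 0, separate scale for each gene) of the 10 genes in germ, granulosa, interstitial and mesothelial cells, with 1 point per library and a bar at the mean of both. Dppa3, Kdm1b, Uhrf1, Dnmt1 and Dnmt3b were highest in germ cells in both libraries, and Dnmt3a, Tet1 and Tet2 were lowest there. Dnmt3l showed in interstitial cells at under 1 CPM.

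Dppa3 had the largest fold change of the 10 genes in germ cells. It lies at chr6:122626410-122630272 on the plus strand (GRCm38, as all positions here). It made up 5290 and 5122 CPM of germ cell RNA, or 5206 ± 119 CPM (SD, n = 2 libraries), and 392 and 238 UMIs per cell. A Dppa3 UMI was found in every germ cell of library 1 and in 99.8% of library 2, and still in every cell and in 99.6% after thinning to 2000 UMIs per cell. The log2 fold change over somatic cells was 7.21 ± 0.30 (SE, adjusted p = 1.53e-07). Somatic types held 19.0 to 59.3 CPM, and 17.0% to 40.9% of their cells carried a Dppa3 UMI. These somatic values were 0.360% to 1.16% of the germ level in the same library. The germ genes Sycp3, Zp3, Nobox and Figla stood at 0.196% to 1.25% of their germ levels in the same cells, so a somatic level of Dppa3 is not read as expression. The UMIs were not evenly spread: 1 granulosa cell of library 1 held 75 of 629, and 1 interstitial cell of library 2 held 25 of 938.

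Kdm1b, which removes methyl groups from lysine 4 of histone H3, was next, at 222 and 160.3 CPM in germ cells. Its log2 fold change was 4.76 ± 0.17 (adjusted p = 7.21e-08). Somatic types held 5.54 to 9.69 CPM, or 2.93% to 4.89% of the germ level, which lay above the range of the 4 germ genes in every type and library. Kdm1b shares genomic sequence with Tpmt and Dek on the other strand (Kdm1b, chr13:47043499-47085279, plus strand). Tpmt was at 51.4 and 48.6 CPM in germ cells and 8.42 to 27.3 CPM in somatic types. Dek did not share the pattern, with 194 and 206 CPM in germ cells and 150.1 to 356 CPM in somatic types.

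**Figure D2:**
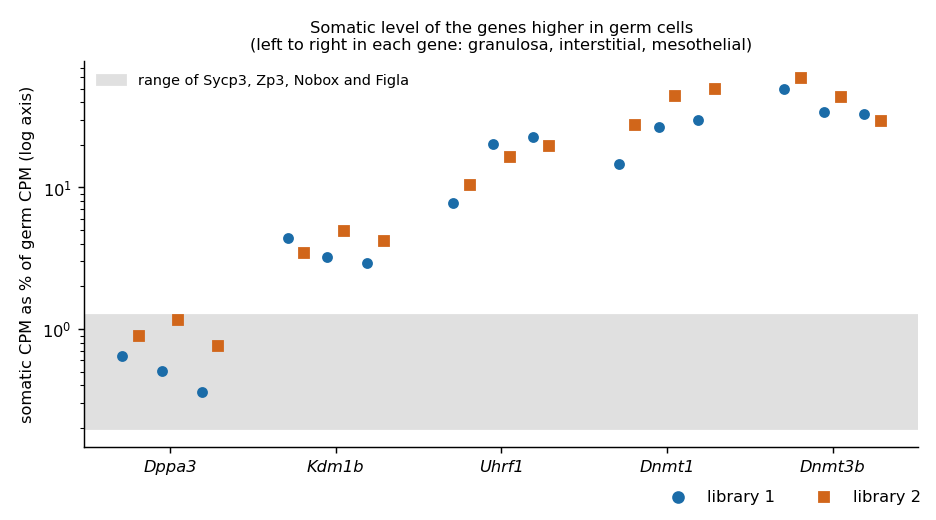
Somatic CPM as a percentage of germ CPM in the same library (log axis) for the 5 genes called higher in germ cells, with 1 point per library in granulosa, interstitial and mesothelial cells from left to right. Dppa3 lay within the grey range of 4 germ genes (0.196% to 1.25%), while Kdm1b (2.93% to 4.89%), Uhrf1, Dnmt1 and Dnmt3b lay above it.

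The maintenance pair was also higher in germ cells, although oocytes have left the mitotic cycle by birth. Uhrf1 (chr17:56303321-56323486, plus strand) stood at 221 and 190.9 CPM in germ cells against 17.2 to 50.6 CPM in somatic types, a log2 fold change of 2.78 ± 0.15 (adjusted p = 6.50e-07). Dnmt1 (chr9:20907209-20959888, minus strand) stood at 138.5 and 75.5 CPM against 20.4 to 41.6 CPM, a log2 fold change of 1.85 ± 0.17 (adjusted p = 1.07e-05). The germ cell values of Dnmt1 differed between the libraries more than those of any other called gene relative to its mean, yet both exceeded every somatic value. Per cell, germ cells held 10.3 and 3.51 Dnmt1 UMIs and 16.4 and 8.87 Uhrf1 UMIs, and no somatic type reached 1 UMI of either.

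The de novo enzymes went opposite ways as shares of RNA. Dnmt3b (chr2:153649450-153687730, plus strand) was at 19.6 and 13.0 CPM in germ cells and 3.86 to 9.63 CPM in somatic types, with a log2 fold change of 1.38 ± 0.20 (adjusted p = 2.47e-04). Its antisense gene Dnmt3bos was likewise at 6.60 and 5.87 CPM in germ cells and at 0 to 0.501 CPM elsewhere. Where counting ignores strand, reads of such a pair cannot be told apart, and the sources used here do not state the strand setting. After thinning to 2000 UMIs per cell the Dnmt3b difference was 0.65 (adjusted p = 0.314) and the call was lost. Dnmt3a (chr12:3806007-3914443, plus strand) was at 36.03 and 31.1 CPM in germ cells and 60.5 to 86.4 CPM in somatic types. Its log2 fold change was -1.005 ± 0.12 (adjusted p = 6.98e-05), which lies at the 2-fold limit, and it was -0.99 when likely doublets were kept.

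Counted per cell, Dnmt3a took another order. Germ cells held 2.67 and 1.45 Dnmt3a UMIs per cell, granulosa cells 0.896 and 1.17, mesothelial cells 1.17 and 1.02, and interstitial cells 0.444 and 0.435. Thus germ cells gave the most Dnmt3a UMIs per cell in both libraries, although Dnmt3a took a smaller share of their RNA. For Tet2, too, germ cells gave the most UMIs per cell, at 0.538 and 0.334 against 0.0949 to 0.218 in somatic types. Tet3 gave 1.95 and 0.815 UMIs per germ cell against 0.166 to 0.495 in somatic types. As a share of RNA, Tet3 was higher in granulosa cells than in germ cells in both libraries. In these data RNA per cell and the number of UMIs captured per cell cannot be told apart.

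Dnmt3l (chr10:78041947-78063622, plus strand), the partner of the de novo enzymes in growing oocytes, was nearly absent. Germ cells gave 1 UMI in library 1 and 2 UMIs in library 2 among 16514295 and 26564137 germ UMIs. Interstitial cells gave 9 and 14 UMIs, each in a different cell, or 0.886 and 0.885 CPM. Granulosa, mesothelial and ungated cells gave 0 in both libraries. A limit of 3 UMIs was 0.161 and 0.427 CPM in granulosa cells, but 1.502 and 1.05 CPM in mesothelial and 1.06 and 1.28 CPM in ungated cells, above the interstitial level in each library. As a share of all UMIs, the interstitial rate was 12.7 times the germ rate, with a 95% counting interval of 3.84 to 66.2 (exact, over both libraries). Per cell the values lay closer, at 0.00651 and 0.00561 Dnmt3l UMIs in interstitial cells and 0.00448 and 0.0035 in germ cells. The ratios below are again shares of all UMIs. For granulosa and mesothelial cells the count of 0 was replaced by a limit of 3 UMIs over both libraries. The interstitial rate was then 7.56 times the granulosa limit and 1.43 times the mesothelial limit. Counting error of the 23 interstitial UMIs is not part of these ratios. The fitted fold changes of such a gene depend on the prior count and are not given.

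Of the TET enzymes, Tet1 was lower in germ cells and Tet2 and Tet3 were not called. Tet1 (chr10:62804570-62908996, minus strand) stood at 0.969 and 1.32 CPM in germ cells against 10.5 to 26.8 CPM in somatic types, a log2 fold change of -3.76 ± 0.29 (adjusted p = 4.46e-06). A Tet1 UMI was found in 6.28% and 5.59% of germ cells although these were the deepest cells, and in 13.4% to 19.7% of somatic cells. Tet2 (chr3:133463679-133545139, minus strand) was at 7.27 and 7.19 CPM in germ cells and 9.01 to 18.03 CPM elsewhere. Its log2 fold change of -0.87 ± 0.16 (adjusted p = 0.00109) passed the test but not the 2-fold limit, and after thinning it was -1.27 (adjusted p = 0.0118) and called. Gm42567, on the other strand at Tet2, was at 7.39 and 6.36 CPM in germ cells and 0 to 0.484 CPM in somatic types. Tet3 (chr6:83362373-83459084, minus strand), the oxidase of the zygote, was at 26.3 and 17.5 CPM in germ cells within the somatic range of 15.1 to 36.5 CPM, with a log2 fold change of -0.15 ± 0.20 (adjusted p = 0.522). A Tet3 UMI was found in 71.8% and 45.6% of germ cells.

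Uhrf1 and Dnmt1 serve DNA replication, so somatic cells were divided by the cell cycle. A somatic cell thinned to 2000 UMIs was counted as cycling when 2 or more of 14 cell cycle genes (6 of S phase and 8 of G2 and M) had a UMI in it, none of which is in the set. This held for 14.9% and 15.3% of granulosa cells, 40.4% and 34.3% of interstitial cells, and 37.3% and 45.9% of mesothelial cells. Granulosa cells were thus the least often cycling type in both libraries, with intervals of 13.2% to 16.8% and 12.3% to 18.7% (95%, exact binomial, counting error only). Below, cells counted as cycling are called cells with cell cycle transcripts, and the other thinned cells are called cells without them. The latter name is a label only. Such cells could still hold UMIs of fewer than 2 of the 14 genes after thinning, or of more before it.

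**Figure D3:**
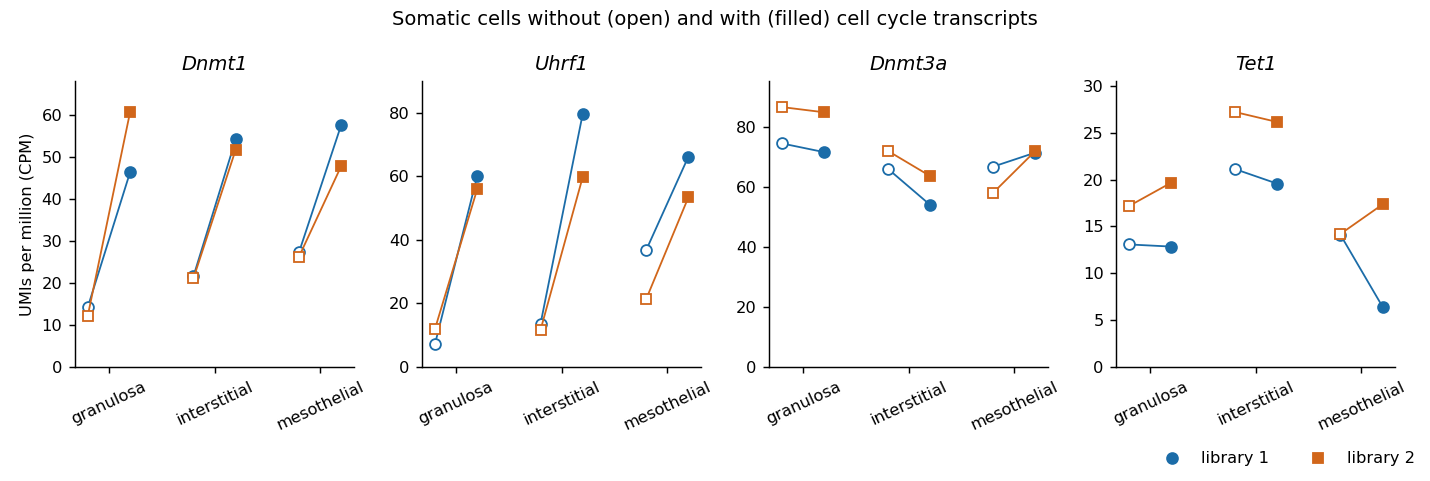
CPM (linear axis from 0) of Dnmt1, Uhrf1, Dnmt3a and Tet1 in somatic cells not counted (open) and counted (filled) as cycling, with a line joining the values of each library. Dnmt1 and Uhrf1 were higher in cycling cells of each type and library, while Dnmt3a and Tet1 showed no shared direction.

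In interstitial cells Uhrf1 stood at 79.8 and 59.9 CPM with cell cycle transcripts and at 13.5 and 11.5 CPM without. Its log2 fold change was 2.43 ± 0.25 (adjusted p = 3.01e-05). Dnmt1 stood at 54.2 and 51.7 CPM with them and at 21.5 and 21.0 CPM without, a log2 fold change of 1.25 ± 0.23 (adjusted p = 0.00415). Of the 9 members tested here these were the 2 called, against 3.01% of all genes tested. Dnmt3a (-0.29), Tet1 (-0.14), Tet2 (-0.35), Tet3 (-0.22), Kdm1b (-0.29), Dppa3 (0.12) and Dnmt3b (0.69) were not called, and Dnmt3l did not pass the filter on low counts. Interstitial cells with cell cycle transcripts gave 7 and 8 Dnmt3l UMIs, or 1.46 and 1.25 CPM. Those without gave 2 and 6 UMIs, or 0.374 and 0.641 CPM, and this difference was not tested.

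Granulosa cells gave the same 2 members. Uhrf1 stood at 60.0 and 55.9 CPM in cycling granulosa cells and at 7.002 and 11.8 CPM in the others, a log2 fold change of 2.71 ± 0.27 (adjusted p = 1.93e-05). Dnmt1 stood at 46.3 and 60.6 CPM against 14.2 and 12.2 CPM, a log2 fold change of 1.99 ± 0.25 (adjusted p = 1.33e-04). Here 5.03% of all genes tested were called. The Dnmt1 difference was larger in granulosa than in interstitial cells by 0.74 ± 0.33 on the log2 scale, which did not pass the test (adjusted p = 0.796). Mesothelial cells held 66.2 and 53.4 CPM of Uhrf1 with cell cycle transcripts and 36.7 and 21.3 CPM without, and 57.7 and 47.9 against 27.3 and 26.2 CPM of Dnmt1. That pair was not tested.

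Both genes were described with a short stretch at an annotated start, because they moved together with the cell cycle. E2F factors switch on genes of DNA replication, and their known binding letters were searched on both strands as TTTCCCGC, TTTGGCGC, TTTCGCGC or TTTGCCGC in 300 bases around each start site (RefSeq, GRCm38.p6). Of 16 entries for 9 members (Dppa3 has no entry), matches lay in 1 of 3 entries of Dnmt1 and in 1 of 2 entries of Uhrf1, and in no entry of the other 7 members. Among all 32851 promoters of this length 2.27% held a match. Each search word contains CG, and both entries with a match held 33 CG pairs, against a median of 7 over all promoters. The 2.27% is thus no share among promoters of like CG content. The Tet2 entry held 57 CG pairs and no match. Words for NOBOX (TAATTA or TAATTG) and the E-box (CANNTG) were searched too. NOBOX words were in no entry of a member, against 12.4% of all promoters. The E-box word was in an entry of each of these 9 members but Tet2, and in 72.3% of all promoters. The E2F matches are shown in capitals with up to 10 bases on either side, read along the strand of the gene.
Dnmt1, chr9:20952825-20952852, minus strand: gtttccgcgcGCGCGAAAaagccggggt
Dnmt1, chr9:20952574-20952600, minus strand: cggggcagcgTTTGGCGCgggctgtgc
Uhrf1, chr17:56304118-56304145, plus strand: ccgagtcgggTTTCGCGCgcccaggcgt
Counted from the start site of its entry, the first letter of the match lay at -219 and 33 in Dnmt1 and at -185 in Uhrf1. Both Dnmt1 matches fall in a non-coding stretch of an annotated exon and the Uhrf1 match in an intron (GENCODE M21). A match of letters is a description and not a binding site. The libraries count RNA near its polyadenylated end, so they do not show which start was used.

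Against cycling somatic cells alone, Uhrf1 was still higher in germ cells, while Dnmt1 lay at the 2-fold limit. Against somatic cells with cell cycle transcripts the log2 fold change of Uhrf1 was 1.76 (adjusted p = 1.72e-06) and that of Dnmt1 was 1.05 (adjusted p = 8.64e-04). Germ cells held 138.5 CPM of Dnmt1 against 46.3 to 57.7 CPM in cycling types of library 1, and 75.5 against 47.9 to 60.6 CPM in library 2. A single germ cell gave 320 of the 2287 Dnmt1 UMIs of library 1. Without that cell the value against cycling cells was 0.86 ± 0.17 (adjusted p = 0.00120), and the call of Dnmt1 was lost, while Uhrf1 was 1.67. Against somatic cells without cell cycle transcripts the values, with that cell, were 3.84 for Uhrf1 and 2.46 for Dnmt1. Dnmt3b was 0.99 against cycling cells and lost its call. Dppa3, Kdm1b, Dnmt3a and Tet1 kept their calls against both.

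**Figure D4:**
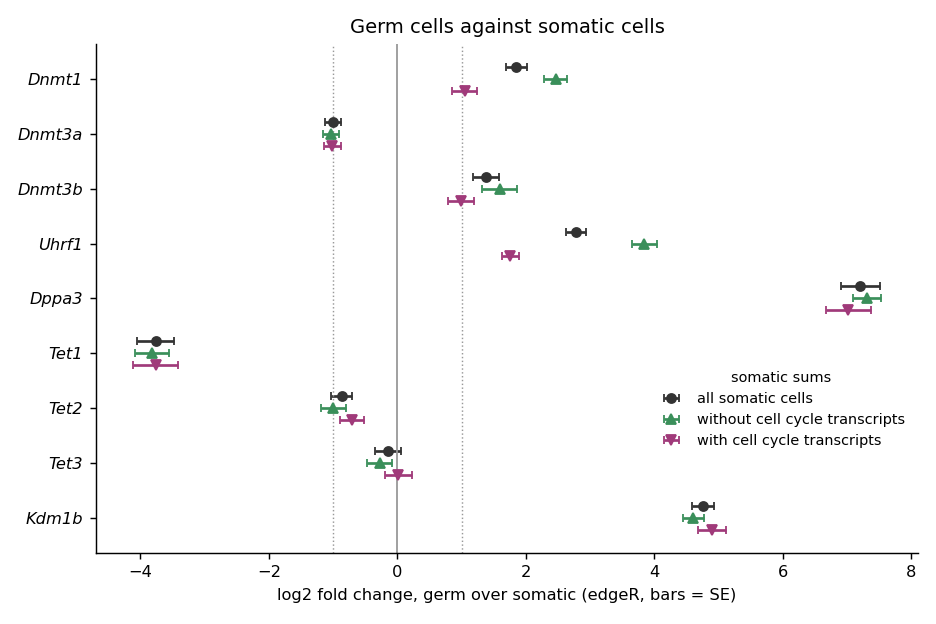
Log2 fold change of germ over somatic cells (edgeR, points, with bars of 1 SE) for 9 genes, with the somatic sums made from all cells, from cells not counted and from cells counted as cycling. Dotted lines mark 2-fold. Uhrf1 went from 3.84 to 1.76 and Dnmt1 from 2.46 to 1.05 between the sums without and with cycling cells, while Kdm1b, Tet1 and Dnmt3a moved little.

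The same division bears on the order of the somatic types. Across all cells Uhrf1 was lower in granulosa than in interstitial cells, at 17.2 and 19.8 CPM against 44.8 and 31.1 CPM, a log2 fold change of -1.10 ± 0.21 (adjusted p = 0.00363). Among cells without cell cycle transcripts the difference was -0.54 (adjusted p = 0.179), and among cells with them it was -0.31 (adjusted p = 0.228). Dnmt1 was -0.83 ± 0.23 (adjusted p = 0.0172), short of the 2-fold limit, and Tet1 was -0.71 ± 0.26 (adjusted p = 0.0570). Beside Uhrf1, Dnmt3l passed the test, on the counts of 23 and 0 given above. In this comparison 27.4% of all genes tested were called.

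Between mesothelial and interstitial cells edgeR called 0 of 10 members, against 21.6% of all genes tested, and DESeq2 called 0 as well. At an unadjusted p under 0.05 there were 3 of 10 members, against 6445 of the 15387 genes tested. These members were Tet1 (-0.81 ± 0.30, adjusted p = 0.0683), Tet2 (-0.65 ± 0.22, adjusted p = 0.0561) and Dnmt3l. After thinning Tet1 was called lower in mesothelial cells. Among cells not counted as cycling Uhrf1 was called higher in mesothelial cells, at 36.7 and 21.3 against 13.5 and 11.5 CPM. Its 39 and 30 UMIs there lay in 16 of 74 and 17 of 99 mesothelial cells. Whether these included cycling cells that the count missed was not tested. Among cells counted as cycling Uhrf1 stood at 66.2 and 53.4 against 79.8 and 59.9 CPM. This division was chosen after seeing the data.

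Within the germ cells, the set was followed along Zp3, a gene of the egg coat that comes on as follicles form. RNA-rich germ cells, with at least 10000 UMIs, numbered 212 and 442. They were split at 6.38 Zp3 UMIs per 10000, the median over both libraries, into 145 and 182 Zp3-high and 67 and 260 Zp3-low cells. Dnmt1 was higher in Zp3-high cells, at 164 and 105.2 CPM against 58.7 and 48.2 CPM. Its log2 fold change was 1.42 ± 0.19 (adjusted p = 0.00557). The fit also held sums of germ cells under 10000 UMIs and of the somatic types, which share its estimate of spread. Dnmt1 was the sole member called of 9 tested, in a comparison that called 0.598% of all genes tested (90 genes, or 272 with the library as a block).

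Uhrf1 and Dnmt3a had the same direction in both libraries but did not pass. Uhrf1 stood at 251 and 245 CPM in Zp3-high cells against 129 and 138 CPM, a log2 fold change of 0.97 ± 0.28 (adjusted p = 0.182). Dnmt3a stood at 40.3 and 39.8 CPM against 22.4 and 23.2 CPM, a log2 fold change of 0.88 ± 0.19 (adjusted p = 0.0534). Neither gene overlapped between the groups, but the share of all genes without overlap was not counted. When the upper tertile of cells by Zp3 was set against the lower tertile, both were called, with log2 fold changes of 1.42 (adjusted p = 0.0162) for Uhrf1 and 1.17 (adjusted p = 0.00708) for Dnmt3a, beside 1.80 for Dnmt1. That setting called 419 genes in all, against 90 in the split at the median.

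Quartiles of the Zp3 share, set over both libraries, showed the shape of the difference. From the lowest to the highest quartile Dnmt1 went from 50.3 to 220 CPM in library 1 and from 40.8 to 137 CPM in library 2, while the quartile below the highest was still at 74.0 and 75.9 CPM. Uhrf1 went from 128 to 309 CPM and from 107 to 298 CPM, and Dnmt3a from 21.5 to 46.0 and from 20.2 to 47.2 CPM. Dppa3 went from 4174 to 5741 and from 4420 to 5878 CPM. These 4 genes were higher at each step in both libraries, and the step into the highest quartile held most of the Dnmt1 difference. The share of all genes ordered in this way was not counted. From the lowest to the highest quartile median depth also went from 52144.5 to 96605 UMIs in library 1 and from 49644 to 78609 in library 2. In library 1 a single cell held 320 of the 1693 Dnmt1 UMIs of the highest quartile. Across the split by Zp3, Dppa3 differed by 0.34 ± 0.38 (adjusted p = 0.841) and Kdm1b by 0.21 ± 0.25 (adjusted p = 0.853) on the log2 scale. Kdm1b held 232 and 238 CPM at the ends in library 1 and 153 and 180 CPM in library 2, with lower values between them. Dnmt3b (0.48), Tet2 (0.34), Tet3 (0.38) and Tet1 (-0.05) were not called, and Dnmt3l did not pass the filter.

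**Figure D5:**
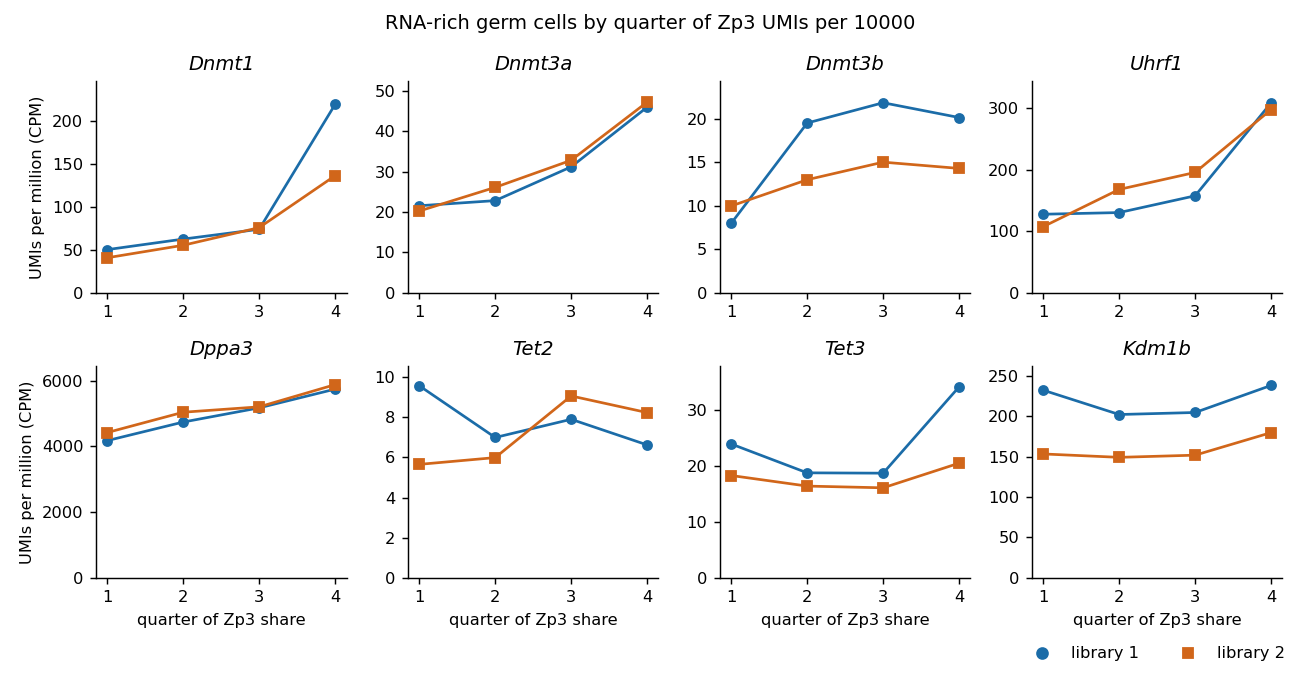
CPM (linear axis from 0) of 8 genes in RNA-rich germ cells divided into quartiles by Zp3 UMIs per 10000, from lowest (1) to highest (4), with 1 line per library. Dnmt1 reached 220 and 137 CPM in the highest quartile from 50.3 and 40.8 CPM in the lowest, with Uhrf1 and Dnmt3a ordered alike. Kdm1b was at 232 and 238 CPM at the ends in library 1 and 153 and 180 CPM in library 2. In the highest quartile of library 1, a single cell held 320 of 1693 Dnmt1 UMIs.

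Zp3-high cells also gave more UMIs per cell, with median depths of 87948 and 71822 UMIs against 61483 and 55558. Among germ cells of 60000 to 90000 UMIs the same direction held: Dnmt1 was at 103.9 and 84.4 CPM in Zp3-high and 60.5 and 50.2 CPM in Zp3-low cells. Uhrf1 was at 206 and 224 against 137 and 159 CPM, and Dnmt3a at 33.3 and 37.0 against 19.2 and 26.1 CPM. In this range the Dnmt1 difference was under 2-fold in both libraries, and it was not tested. Median depth still differed there, at 79430.5 and 73895 UMIs in Zp3-high and 72390 and 65631 in Zp3-low cells. Whatever their Zp3, germ cells of this range held 90.0 and 69.2 CPM of Dnmt1. Germ cells from 90000 UMIs upward held 216 and 149 CPM, and in library 1 a single cell gave 320 of their 1459 Dnmt1 UMIs. Cell by cell, the median Dnmt1 count was 8 and 5 UMIs in Zp3-high and 3 and 2 in Zp3-low cells. Without the germ cell of 320 Dnmt1 UMIs the log2 fold change of Dnmt1 by Zp3 was 1.29 (adjusted p = 0.00595) and that against all somatic cells was 1.73 (adjusted p = 5.31e-06).

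RNA-poor germ cells, under 10000 UMIs, numbered 11 and 130 and summed to 31833 and 478063 UMIs. Dppa3 kept its share of the RNA there, at 5466 and 5765 CPM against 5290 and 5110 CPM in RNA-rich cells. Kdm1b was at 251 and 299 CPM, on 8 and 143 UMIs, against 222 and 158 CPM. Uhrf1 was at 188.5 and 307.5 CPM, on 6 and 147 UMIs, against 221.4 and 188.8 CPM. Tet3 gave 0 and 3 UMIs, or 0 and 6.28 CPM, against 26.3 and 17.8 CPM, with an adjusted p of 0.0743. A limit of 3 UMIs was 94.2 CPM in the RNA-poor cells of library 1, above the RNA-rich level. The 0 of that library is therefore not read as a lower level. edgeR called 0 of 9 members, against 1.13% of all genes tested, and DESeq2 also called 0. At an unadjusted p under 0.05 there were 2 of 9 members, against 3163 of the 14857 genes tested. The median log2 fold change of all genes was 0.64 with TMM scaling and 0.042 with total UMIs, a shift of -0.60, and 5 members changed sign with it, so no direction is given. The block by library called 597 genes in place of 168, with 0 members among them.

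Other genes of the pathway were taken from a list of 41, of which 40 were tested between germ and somatic cells. There were 9 higher and 6 lower in germ cells, and 25 not called, against 31.2% higher and 26.7% lower of all genes tested. The median log2 fold change of the list was 0.28, and that of all genes was 0.11. Partners of the methyltransferases gave 4 higher and 0 lower of 11. Nlrp14, an oocyte protein of early development, stood at 397 and 310 CPM in germ cells (log2 fold change 7.22 ± 0.23, adjusted p = 5.00e-08). Zfp57, a zinc finger protein that keeps imprints, stood at 293 and 310 CPM against 13.8 to 31.0 CPM (4.03 ± 0.14, adjusted p = 6.71e-08). Usp7, a deubiquitinase that stabilizes DNMT1 and UHRF1, was 1.79 ± 0.12, with 133 and 101.3 CPM in germ cells.

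Factors of demethylation and base excision gave 2 higher and 3 lower of 10, and those of methyl donor supply 2 higher and 0 lower of 5. Mat2b, a subunit of the enzyme that makes S-adenosylmethionine, was 2.77 ± 0.12 at 517 and 529 CPM in germ cells, and Ung, a uracil glycosylase, was 2.19 ± 0.13 at 211 and 187 CPM. On the other side Tdg, the glycosylase that removes oxidized methylcytosine after TET enzymes, stood at 4.66 and 4.40 CPM in germ cells against 28.6 to 39.3 CPM (-2.77 ± 0.18, adjusted p = 1.71e-06). Gadd45b (-3.16 ± 0.23) and Gadd45g (-3.15 ± 0.49), stress-induced factors tied to demethylation, were lower as well. Readers of methylated DNA gave 0 higher and 2 lower of 8, among them Zbtb4 (-3.44 ± 0.34). Uhrf2, the relative of Uhrf1, was -1.43 ± 0.13, at 26.0 and 28.1 CPM in germ cells and 68.0 to 92.9 CPM elsewhere, opposite to Uhrf1 itself.

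In cycling cells 5 of 39 tested were higher and 0 lower in interstitial cells, and 6 were higher and 2 lower in granulosa cells. Of all genes tested, 2.99% were higher and 0.0211% lower in interstitial cells, and 3.9% higher and 1.14% lower in granulosa cells. By Zp3, 1 of 39 was called, against 0.598% of all genes tested, and this was Nlrp14, which was higher by 1.68 ± 0.31 on the log2 scale (adjusted p = 0.0299). Named after their values were seen, the 5 in interstitial cells were Lig1 (2.05), Hells (1.57), Pcna (1.49), Shmt1 (1.46) and Ung (1.10). In granulosa cells Cdca7 (1.69) joined these 5, and Zbtb4 (-1.24) and Gadd45b (-1.10) were the lower pair.

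Across 12 sums (Zp3-high, Zp3-low and RNA-poor germ cells and 3 somatic types in 2 libraries), the 3 genes most like each member were found by Pearson's r of log2(CPM + 1) among 8963 genes of at least 10 CPM on average. The sums share libraries and fall into germ and somatic, so r is a description. Dppa3 was closest to Smc1b, 4930562C15Rik and Nlrp5 (0.999 each), Kdm1b to Supv3l1, Tex19.1 and Gpat2 (0.996 to 0.997), and Uhrf1 to Mybl2, Cenps and Pkp4 (0.982 to 0.983). Dnmt1 was closest to Ccdc74a, Myo5a and Zw10 (0.947 to 0.963), Dnmt3b to Usp42, Dhx32 and Senp5 (0.983 to 0.993), and Dnmt3a to Prdx2, Mboat7 and Arpc1b (0.948 to 0.953). Tet1 was closest to Fcgrt, Tns2 and Hdac7 (0.989 to 0.990), Tet2 to Nisch, Ahsa2 and Pfkm (0.987 to 0.988), and Tet3 to Atrn, Chd8 and Brpf1 (0.983 to 0.990). Dnmt3l, on few UMIs, was closest to Ms4a4d, Hic1 and Twist2 (0.978 to 0.984).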

How the data were processed

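Ovaries were dissociated and sequenced by droplet 3′ single-cell RNA-seq. The deposited values are unnormalized UMI counts, a whole number for each gene in each cell, made by the authors with Cell Ranger 3.0.2 on GRCm38 (submitters' processing notes). The kit is given as version 2 in the labels and version 3 in the methods, and the counts do not settle it. The libraries held 4094 and 4847 barcodes (54471790 and 59074480 UMIs), of which 19 were shared. A cell was kept from 500 detected genes upward and up to 10% mitochondrial UMIs, and 96 and 93 were removed as likely doublets with Scrublet (scanpy 1.11.5) at a score of 0.225, the automatic threshold of library 1. The threshold of library 2 (0.521) marked 2 cells.

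A cell passed a gate with at least 3 marker UMIs of 2 markers (2 UMIs of Upk3b) and a minimum per 10000 UMIs of 5 (germ and granulosa), 10 (interstitial) or 2 (mesothelial). Cells in 2 gates or none were left out. Sums over the cells of a type in each library were tested with edgeR 4.0.16 in R 4.3.3 (TMM, filterByExpr, quasi-likelihood), with DESeq2 1.42.0 as an alternative, after tests on simulated data. All sums of a fit share a common spread per gene. Except for germ against somatic cells, each fit also held sums of cell types outside the comparison. SE is the log2 fold change over the square root of F. Cell types of a library come from the same pups, and their deviations from the means correlated at 0.106 to 0.303, so library was tried as a block.

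Members and lists were chosen with earlier results of these data known. All members are named. Other pathway genes are named as up to 5 of largest change in each direction among those called between germ and somatic cells. Intervals and limits of 0 cover counting error only.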

Additional observations from a re-analysis of the deposited data

Results flagged for a closer look

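Cells outside the 4 gates entered no comparison. Among them, 61 cells of library 1 and 30 of library 2 carried at least 3 UMIs of at least 2 endothelial markers (Pecam1, Cdh5, Cldn5 and Kdr), and their Dnmt3b signal was singled out because it comes from data that no comparison used. Dnmt3b stood at 27.6 and 35.1 CPM there (27 and 14 UMIs), above the 3.86 to 19.6 CPM of the gated types in both libraries. The difference was not tested.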

How the results depend on the processing

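Dnmt3l is left out here, since its counts give no fold change. Of the values of the other 9 members under alternatives with a test, 526 kept their direction and their side of the threshold, 7 lost a call, 8 gained one and 38 changed sign. Every sign change was in a member not called in the main comparison. Without replicate 1 or 2, where no test was made, 82 moved by less than 1 SE and 44 by more, and no called value changed sign.

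Of germ and somatic cells, thinning to 2000 UMIs called 5473 genes, keeping doublets left 1 member lower, and Tet3 was 0.016 against cycling somatic cells. Against these and without the germ cell of most Dnmt1 UMIs, 3 members were higher, Dnmt1 (0.86) and Dnmt3b (0.93) having lost their calls. RNA-rich against RNA-poor germ cells depended most on the setting. It called 31 genes with total UMIs, 687 with no filter (with 1 member, Tet3, higher), 597 with the replicate block, 16 thinned, 12 with doubled gates and 406 with doublets kept. Signs changed with total UMIs for Dnmt3a (-0.18), Uhrf1 (-0.47), Dppa3 (-0.11), Tet2 (-0.11) and Kdm1b (-0.61), and in DESeq2 for Dnmt3a (-0.060), Uhrf1 (-0.29), Tet2 (-0.026) and Kdm1b (-0.44). Thinning gave Uhrf1 -0.47, Tet1 5.25, Tet2 -0.032 and Kdm1b -0.21, the replicate block gave Kdm1b -0.041, and a split at 20000 UMIs gave Tet1 0.59.

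By Zp3, 158 genes were called in DESeq2, 362 with no filter, 272 with the replicate block, 22 thinned and 419 by outer tertiles (3 members higher). Tet1 was 0.042 with the block and 0.20 by tertiles, and Tet3 was -0.037 thinned. By cell cycle in granulosa cells, 1127 genes were called with no filter, 416 thinned and 313 with at least 1 cell cycle gene. Kdm1b there was -0.016 in DESeq2, -0.11 with no filter, -0.97 thinned and -0.0023 with doubled gates, and Tet1 was -0.083 with no filter.

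Between granulosa and interstitial cells thinning called 2606 genes and 3 members lower (Dnmt1, Uhrf1 and Tet1), and 0 members were lower within either cell cycle class. Kdm1b was -0.045 in DESeq2, -0.042 with the replicate block, -0.090 thinned and -0.054 without cycling cells. Tet2 was -0.026 in DESeq2, -0.055 thinned, and -0.068 and -0.012 without and with cycling cells, and Dppa3 was 0.18 thinned. Between mesothelial and interstitial cells thinning called 1786 genes with 1 member lower (Tet1), and gave Dnmt3b 0.25 and Kdm1b 0.18. Without cycling cells 1 member was higher (Uhrf1, 1.19), Dnmt3a was -0.16 and Kdm1b 0.032, and with cycling cells Uhrf1 was -0.16. The divisions of the somatic comparisons by cell cycle and the removal of 1 germ cell, alone or with cycling cells, were chosen after seeing the data. Beyond the counts of genes given here, the replicate block changed no call of a member. The cause of these changes was not tested.

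Depth limits shares of cells: Dnmt1 was found in 85.3% of germ, 18.5% of granulosa, 19.1% of interstitial and 36.4% of mesothelial cells, and after thinning in 16.2%, 2.82%, 5.96% and 5.82%.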

Other observations

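The germ cell with 320 Dnmt1 UMIs ranked first among the 212 RNA-rich germ cells of library 1 for 6 members at once. It held 146 Uhrf1, 92 Kdm1b, 42 Tet3 and 23 Dnmt3a UMIs, where the medians were 13, 15.5, 2 and 2, together with the only Dnmt3l UMI found in germ cells of that library. It was also first for Gdf9, an oocyte growth factor (496 UMIs, median 28), and for Kit (53 UMIs), and ranked 4 for Zp3 and for Zp2. Dppa3, at 436 UMIs, was near its median of 417.5, and Sycp3, a protein of the meiotic chromosome axis, ranked 189 with 60 UMIs. Its depth of 96248 UMIs ranked 48. The cell was noticed after its values were seen, and 1 cell allows no test.

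In the endothelial-marked cells Kdm1b was at 2.05 and 2.50 CPM, on 2 and 1 UMIs, and Tet3 at 38.9 and 32.5 CPM. Another 35 and 60 ungated cells carried immune markers (at least 3 UMIs of at least 2 of Ptprc, Tyrobp, Cd52 and Laptm5). They held 0 and 1 Tet1 UMIs and 71.9 and 40.6 CPM of Dnmt1.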
